A study of Mus musculus with 3 samples.

Results

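Receptors that guide lymphocytes to inflamed tissue, to the germinal centre and to oxysterol gradients were measured here in TFR cells, the follicular regulatory T cells that restrain germinal centre responses. The set holds 7 genes chosen by name, *Cxcr3*, *Cxcr4*, *Cxcr6*, *Ccr1*, *Ccr2*, *Gpr183* and *P2ry10*, and each was present among the 25759 genes of all 3 libraries. TFR cells (CD4+B220-GFP+CXCR5+GITRhi) were sorted from spleen and mLN of mice that had received 125 µg NP-KLH in alum, a boost on day 7 and the sort on day 10. The library N was made from Nfatc1fl/fl.Prdm1gfp/+.FIC mice and is labelled NFATc1-deficient. The library αA was made from Nfatc1caaA.Prdm1gfp/+.FIC mice, which carry a constitutively active NFATc1/αA. The library PαA was made from Nfatc1caaA.Prdm1gfp/fl.FIC mice, in whose Cre-expressing cells a floxed *Prdm1* allele, the gene of Blimp-1, is to be removed in addition. All 3 genotypes carried one *Prdm1* allele that reports as GFP, and all carried FIC, a Cre recombinase made from the *Foxp3* locus that is also active in some conventional T cells. Neither the ages of the mice nor the number of mice behind a library is given in the sources used here. There was 1 library per genotype, so no difference below could be set against a spread between mice and none was tested.

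All 7 proteins are receptors with transmembrane helices that signal mainly through Gi or, for some lipid receptors, other G proteins, and so turn a gradient of ligand into movement. CXCR3 binds the interferon-induced ligands CXCL9, CXCL10 and CXCL11, CXCR4 binds CXCL12 and draws germinal centre cells to the dark zone, and CXCR6 binds CXCL16. CCR1 and CCR2 are best known from monocytes and bind, among others, CCL3 and CCL5 (CCR1) and CCL2 (CCR2). GPR183, also named EBI2, binds an oxysterol made from cholesterol and places activated lymphocytes at the edge of the follicle, and P2RY10 is a receptor for lysophosphatidylserine.

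RefSeq promoters (GRCm38.p6, 250 bases before to 50 bases after the start site) were available for 7 of 7 genes, with 8 start sites because *P2ry10* has more than 1. Those of 4 genes are shown because these genes had the highest ratios of αA to N (*Gpr183* and *Cxcr6*), the lowest such ratio among genes with an RPKM above 5 (*Ccr2*) and the highest ratio of PαA to αA by all exon reads (*Cxcr4*). Their windows are chr14:121965144-121965443 (minus strand) for *Gpr183*, chr9:123806227-123806526 (plus strand) for *Cxcr6*, chr9:124101933-124102232 (plus strand) for *Ccr2* and chr1:128592250-128592549 (minus strand) for *Cxcr4*. Capitals mark GGAAA, the core that NFAT factors bind, and GAAAG, the core of the Blimp-1 motif, on either strand (TTTCC and CTTTC when read on the other one).
Gpr183: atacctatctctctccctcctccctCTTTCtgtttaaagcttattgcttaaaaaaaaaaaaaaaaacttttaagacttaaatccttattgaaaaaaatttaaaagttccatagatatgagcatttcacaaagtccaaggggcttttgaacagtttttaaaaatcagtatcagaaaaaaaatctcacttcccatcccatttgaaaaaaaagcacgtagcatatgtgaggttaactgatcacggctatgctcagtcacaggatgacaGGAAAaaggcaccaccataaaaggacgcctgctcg
Cxcr6: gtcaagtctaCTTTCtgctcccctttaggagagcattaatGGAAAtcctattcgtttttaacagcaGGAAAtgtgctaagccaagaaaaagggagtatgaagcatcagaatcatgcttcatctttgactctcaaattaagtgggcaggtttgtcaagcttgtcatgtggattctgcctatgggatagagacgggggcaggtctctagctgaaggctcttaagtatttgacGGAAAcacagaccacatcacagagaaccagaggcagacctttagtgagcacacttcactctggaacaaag
Ccr2: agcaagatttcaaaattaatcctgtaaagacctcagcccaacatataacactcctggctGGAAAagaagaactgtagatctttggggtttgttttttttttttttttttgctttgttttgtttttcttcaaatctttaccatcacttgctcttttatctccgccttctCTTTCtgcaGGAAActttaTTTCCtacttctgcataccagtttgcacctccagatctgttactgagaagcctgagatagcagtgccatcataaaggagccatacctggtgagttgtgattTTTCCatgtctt
Cxcr4: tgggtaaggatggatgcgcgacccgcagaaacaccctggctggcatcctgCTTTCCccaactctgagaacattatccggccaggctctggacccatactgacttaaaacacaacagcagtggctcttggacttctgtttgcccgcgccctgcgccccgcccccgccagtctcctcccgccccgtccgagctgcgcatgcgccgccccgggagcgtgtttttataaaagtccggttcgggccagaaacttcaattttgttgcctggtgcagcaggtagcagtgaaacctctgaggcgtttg
The *Cxcr6* window held 3 matches of GGAAA and 1 of GAAAG, and the *Ccr2* window held 4 and 1. The windows of *Gpr183* and *Cxcr4* held 1 match of each, and in *Cxcr4* these overlap in the letters CTTTCC. Over the whole set, 6 of 7 genes had a GGAAA match and 6 of 7 a GAAAG match in at least 1 window, against 61.3% and 57.3% of 32851 mouse promoters of the same length. *Cxcr3* had neither. The longer Blimp-1 motif AGNGAAAG was found in 0 of the 7 genes and in 8.63% of all promoters. These matches are letters in a window, and binding was not measured in these libraries.

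The libraries held 29726219 (N), 27239921 (αA) and 25465829 reads (PαA), of which 23269443 to 27637953 lay in exons. The RPKM of *Prdm1* was 25.6 in N, 24.9 for αA and 10.0 for PαA. *Nfatc1* was at 63.6, 62.9 and 32.3, so the level of the whole gene did not separate N from αA, and counts per gene cannot show whether a floxed part was removed. N, αA and PαA therefore stand for the libraries so labelled. The T cell markers *Cd3e* (462, 518 and 377 in N, αA and PαA) and *Cd4* (488, 396 and 341) were high, and *Foxp3*, the factor that defines Tregs, was at 32.7, 20.95 and 15.3. The 7 Treg markers summed to 756, 782 and 397. RPKM divides the exon reads of a gene by its exon length and by all reads of the library, and so lets genes be compared per length. A gene was counted as changed between libraries when its RPKM was above 5 in at least 1 library and its ratio above 2 in either direction. The level was reached by 7017 genes and by 6 of the 7 receptors, with *Ccr1* just under it at 4.98 in N. Over expressed genes the median log2 ratio was -0.14 for αA against N, -0.06 for PαA against αA and -0.19 for PαA against N. With TMM factors, which scale libraries on genes of moderate ratio, these medians were 0.02, 0.01 and 0.04, so each log2 ratio below is also given on that scale where it matters.

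Between αA and N, 0 of the 7 receptors passed the criterion, against 4.25% of expressed genes (298 of 7017). Between PαA and αA it was again 0 of 7, against 4.63% (325 of 7017). Between PαA and N, 1 of 7 passed, *Cxcr6*, against 10.3% (725 of 7017). Of those 725 genes, 180 were higher and 545 lower in PαA, but with TMM factors 258 were higher and 251 lower. For αA against N, 101 were higher and 197 lower, and 134 and 112 with TMM factors. At a ratio above 1.5, 3 of 7 receptors passed between αA and N (14.1% of expressed genes), 0 of 7 between PαA and αA (14.7%) and 2 of 7 between PαA and N (28.0%). The percentages are over genes above the RPKM level, which *Ccr1* did not reach, so only 6 of the 7 receptors could pass. The comparisons share the library αA or N, so they are not independent of each other.

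**Figure D1:**
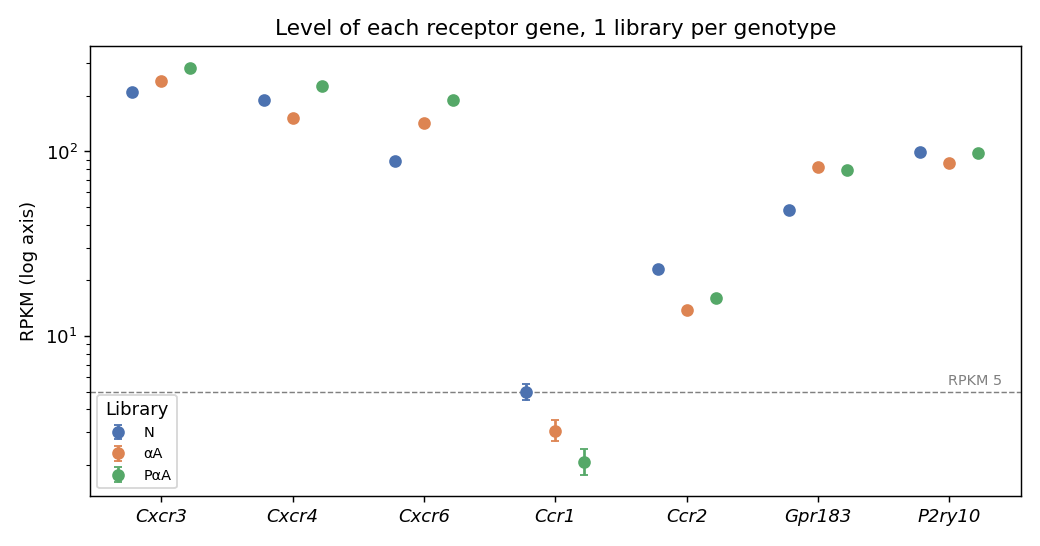
RPKM (log axis) of the 7 receptor genes in the libraries N, αA and PαA. Points are single libraries, bars are 95% Poisson intervals that cover counting error only, and the dashed line marks an RPKM of 5. *Cxcr3* is the highest in each library, and *Ccr1* lies below the line, in N by a margin within its interval.

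*Cxcr3* (chrX:101731535-101734269, minus strand, exon length 1731 bases) was the most abundant of the 7 receptors in all 3 libraries. Its RPKM was 209 in N (95% counting interval 205 to 213), 242 in αA (238 to 247) and 284 in PαA (279 to 289), from 10758, 11420 and 12528 exon reads. The level was higher in αA than in N by 0.21 on the log2 scale (0.17 to 0.25) and higher in PαA than in αA by 0.23 (0.19 to 0.27). The order N, αA, PαA was the same with TMM factors, where these log2 ratios were 0.37 and 0.30. In bulk libraries a change in the share of cells that express a gene and a change in RNA per cell cannot be told apart.

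*Cxcr4* (chr1:128588199-128592293, minus strand, exon length 1808 bases) was the second most abundant receptor in each library. Its RPKM was 191 in N (187.6 to 195.01), 153 in αA (149 to 156) and 226 in PαA (222 to 230). αA was thus the lowest library, 0.32 below N on the log2 scale (0.16 below with TMM factors), and PαA was higher than αA by 0.57 (0.52 to 0.61). By all exon reads this was the highest ratio of the 7 receptors in that comparison, while by unique exon reads *Cxcr6* was as high (0.57). *Cxcr4* is also abundant in plasma cells. The 5 plasma cell markers summed to an RPKM of 50.2 in N, 67.8 in αA and 109 in PαA, of which *Jchain* made 44.3, 58.4 and 94.8, and *Sdc1*, which encodes the plasma cell surface protein syndecan, made 0.74, 1.03 and 5.97. *Tnfrsf17* had 5, 21 and 0 reads. Their part in the *Cxcr4* level was not tested.

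*Cxcr6* (chr9:123806475-123811760, plus strand, exon length 1931 bases) was higher in αA than in N and highest in PαA. Its RPKM was 88.9 in N (86.4 to 91.3), 143 in αA (140.2 to 147) and 191 in PαA (187 to 194), from 5101, 7546 and 9371 exon reads. The log2 ratio was 0.69 for αA against N (0.64 to 0.74), 0.41 for PαA against αA (0.37 to 0.45) and 1.10 for PαA against N (1.05 to 1.15), a 2.14-fold difference. With TMM factors these were 0.85, 0.48 and 1.33, and with TPM the ratio of PαA to N was 0.90 on the log2 scale and missed 2-fold. CD8 T and NK cells, which the CD4+ gate would remove, can carry *Cxcr6* and *Cxcr3* as well. Their 8 markers summed to 133 in N, 280.2 in αA and 429 in PαA, mostly from *Nkg7* (108, 252 and 401), a granule protein gene. *Cd8a* was at 0.19, 2.10 and 2.90, while *Cd8b1* was at 9.07, 12.03 and 5.24, more than 2-fold lower in PαA than in αA. *Eomes* was at 3.32, 0.91 and 3.02, and the NK receptor gene *Ncr1* had only 12, 15 and 10 reads. *Klrb1c* (2.92, 4.23 and 5.90) and *Klrk1* (1.13, 1.65 and 2.89), of the same list, rose from N to αA to PαA, as *Cxcr6* and *Cxcr3* did. *Prf1* was at 7.49, 6.54 and 8.13. The part of CD8 T and NK cells in the *Cxcr6* and *Cxcr3* levels was not tested.

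*Ccr2* (chr9:124101950-124113557, plus strand) was highest in N. Its RPKM was 23.0 in N (22.3 to 23.7), 13.8 in αA (13.2 to 14.3) and 16.0 in PαA (15.4 to 16.6), from 4621, 2537 and 2760 exon reads. The counted exon length, 6760 bases, is the longest of the set, and RPKM divides by it. αA was lower than N by 0.74 on the log2 scale (0.67 to 0.81 below), or 0.58 with TMM factors. PαA was above αA by 0.22 (0.14 to 0.30).

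*Ccr1* (chr9:123962124-123968692, minus strand, exon length 2833 bases) was the least abundant receptor. Its RPKM was 4.98 in N (4.51 to 5.48), 3.07 in αA (2.69 to 3.49) and 2.08 in PαA (1.76 to 2.44), from 419, 237 and 150 exon reads. PαA was 2.39-fold below N, a log2 ratio of -1.26 (-1.54 to -0.99), but *Ccr1* did not reach an RPKM of 5 and is not among the genes counted as changed.

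Monocytes, macrophages and neutrophils carry *Ccr1*, and monocytes carry *Ccr2*, and the gate was set on CD4+B220- cells without a myeloid marker named in the labels. Of 15 monocyte and macrophage markers, 11 in N, 12 in αA and 11 in PαA were above an RPKM of 5, none was at 0, and their sum was 409, 412 and 505. Of the 12 above an RPKM of 5 in a library, 10 were higher and 2 lower in αA than in N. Between PαA and αA, 8 were higher and 4 lower. *Lyz2*, a lysozyme gene, was at 214, 134 and 184 and so was, with *Ly6c2* (12.1, 7.99 and 26.7), 1 of the 2 that were lower in αA than in N like *Ccr2*. *C1qa*, a complement gene of macrophages, was at 35.8, 75.8 and 78.4, lowest in N, where *Ccr1* and *Ccr2* were highest. Among the markers that stayed below an RPKM of 5, *Cd14* had 109, 56 and 32 reads, falling from N to αA to PαA like *Ccr1*. *Fcgr1* had 35, 59 and 62 reads, lowest in N, and *Itgam* had 59, 50 and 57, of which 0, 0 and 3 were unique. The 8 neutrophil markers summed to 39.9, 1.05 and 28.1, and in αA 6 of the 8 were at 0 reads, *S100a9* and *Ly6g* included. The part of these cells in the *Ccr1* and *Ccr2* levels was not tested.

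*Gpr183* (chr14:121952551-121965195, minus strand, exon length 2887 bases) was higher in both libraries with active NFATc1/αA than in N. Its RPKM was 48.1 in N (46.7 to 49.6), 82.6 in αA (80.6 to 84.7) and 79.7 in PαA (77.6 to 81.7), from 4130, 6499 and 5856 exon reads. αA was higher than N by 0.78 on the log2 scale (0.72 to 0.84), the highest ratio of the 7 receptors in that comparison. PαA and αA differed by -0.05 (-0.10 to -0.0020), and the sign turned to 0.01 with TMM factors. B cells, which the B220- gate would remove, dendritic cells and naive T cells carry *Gpr183* too. The 9 B cell markers summed to 21.6, 15.4 and 16.0 in N, αA and PαA, with *Cd79b* the highest (11.5, 8.85 and 8.67) and *Ms4a1*, which encodes CD20, at 172, 123 and 88 reads. *Cd79a* (80, 65 and 147 reads) and *Cr2* (17, 33 and 29 reads) were higher in PαA than in N, and the other B cell markers were lower. The 10 dendritic cell markers summed to 445, 335 and 394, with 4 of the 10 above an RPKM of 5 in each library. *Cd74* was at 325, 160.1 and 139.97, highest in N. The MHC class II genes *H2-Aa* (47.4, 68.2 and 107), *H2-Ab1* (30.0, 47.7 and 74.5) and *H2-Eb1* (39.8, 56.96 and 67.7) were lowest in N like *Gpr183*. *Cd74* and these MHC class II genes were the 4 above the level. Of the others, *Flt3* had 4, 20 and 10 reads, *Itgax* 121, 112 and 272, and *Clec9a* 2, 5 and 0. *Zbtb46* (135, 74 and 106 reads), *Xcr1* (161, 97 and 92) and *Siglech* (29, 5 and 3) were highest in N. The 6 naive T cell markers summed to 267, 339 and 521, led by *Tcf7* (150.2, 203 and 244). Their part in the *Gpr183* level was not tested.

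*P2ry10* (chrX:107088492-107104974, plus strand, exon length 2982 bases) varied least. Its RPKM was 99.96 in N (97.9 to 102), 86.2 in αA (84.2 to 88.3) and 98.4 in PαA (96.2 to 101), from 8861, 7004 and 7470 exon reads. By RPKM, N and PαA were not distinguishable by counting error, with a log2 ratio of -0.02 (-0.07 to 0.02), while αA was 0.21 below N. With TMM factors αA was only 0.05 below N, and PαA was above N by 0.21 (0.16 to 0.25). By unique exon reads PαA against N was -0.05 (-0.09 to -0.0013).

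**Figure D2:**
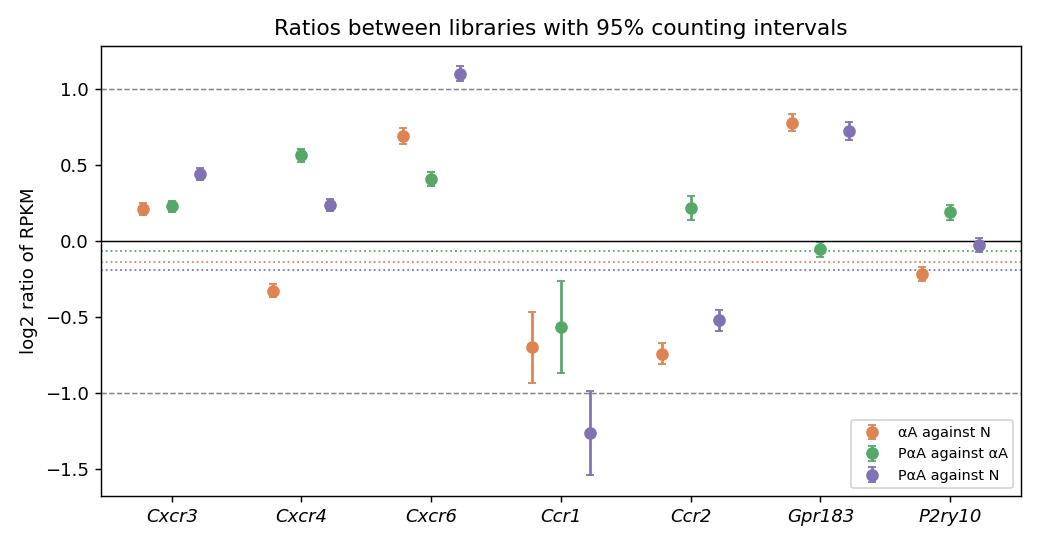
log2 ratio of RPKM for each receptor gene in 3 comparisons. Bars are 95% Clopper-Pearson intervals of counting error, dotted lines are the medians of expressed genes (-0.14, -0.06 and -0.19) and dashed lines mark 2-fold. *Cxcr6* in PαA against N lies above the upper dashed line, and *Ccr1*, which does not reach an RPKM of 5, lies below the lower one.

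The order of the receptors per length was *Cxcr3*, *Cxcr4*, *P2ry10*, *Cxcr6*, *Gpr183*, *Ccr2* and *Ccr1* in N. In αA and PαA, *Cxcr6* stood before *P2ry10* and the rest of the order was the same. The counting intervals of neighbours in this order did not overlap within a library, except those of *P2ry10* and *Gpr183* in αA. *Cxcr6* reached 0.465 of the *Cxcr4* level in N, 0.939 in αA and 0.843 in PαA. Such ratios within a library do not depend on how libraries are scaled. Against *Cxcr5*, the follicle receptor used in the sort (RPKM 48.3, 81.3 and 47.6), the level of *Cxcr4* was 3.96-fold in N, 1.88-fold in αA and 4.75-fold in PαA. *P2ry10* was at 2.069, 1.060 and 2.067 times the *Cxcr5* level, *Cxcr3* at 4.33, 2.98 and 5.97 times, and *Gpr183* at 0.996, 1.02 and 1.67 times. *Cxcr6* was at 1.84 and 1.76 times the *Cxcr5* level in N and αA and at 4.00 times in PαA.

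The summed RPKM of the 7 receptors was 665 in N, 724 in αA and 897 in PαA. Intron reads were few, between 0 and 62 per gene and library, and made at most 1.32% of the reads of a receptor gene.

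*Cxcr6* and *Gpr183* each lie inside another gene on the opposite strand. *Cxcr6* is within *Fyco1* (chr9:123789500-123851899, minus strand), and *Gpr183* is within *Ubac2* (chr14:121878620-122021034, plus strand). In the GENCODE M21 annotation of the same build, the exons of each receptor overlap 0 exons of its host and so lie in its introns. The library kit is not stated to keep the strand, so reads of host introns and receptor exons cannot be told apart by strand. Only 3.51 to 4.00% of the *Cxcr6* exon reads and 3.15 to 4.22% of the *Gpr183* exon reads were counted as unique, and each of these was a read across an exon junction. *Fyco1* had 257, 177 and 115 exon reads in N, αA and PαA, and *Ubac2* had 2068, 2134 and 2405. These counts do not measure host intron reads at the receptor exons, whose part in the receptor levels was not tested. *Gpr18*, a further receptor gene inside *Ubac2*, was at an RPKM of 7.14, 14.2 and 12.3, with 22, 6 and 23 unique reads.

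The unique junction reads gave a second value for each ratio. *Cxcr6* had 204, 265 and 369 such reads, with log2 ratios of 0.50 for αA against N (0.23 to 0.77) and 0.57 for PαA against αA (0.34 to 0.81), so both kept their direction. *Gpr183* had 139, 205 and 247, with log2 ratios of 0.69 (0.37 to 1.01) and 0.37 (0.09 to 0.64). The first kept its direction, and the second went from slightly lower to higher in PαA than in αA. Junction reads also departed from all exon reads in receptors without a host gene. *Cxcr4* had 318, 165 and 303 junction reads, which gave -0.82 (-1.10 to -0.54) for αA against N, where all exon reads gave -0.32, and 0.97 (0.70 to 1.26) for PαA against αA, where they gave 0.57. It was the receptor whose intervals did not overlap in the first comparison. *Cxcr3* had 439, 520 and 398 junction reads, so PαA against αA was -0.29 by junctions and 0.23 by all exon reads. *Ccr1* had 14, 4 and 21, and its PαA against αA ratio turned from -0.56 to 2.49. In 7 of 21 ratios the 95% intervals from junction reads and from all exon reads did not overlap, and in 5 of 21 the sign differed. The differences between the read sets were thus larger than counting error in these ratios.

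**Figure D3:**
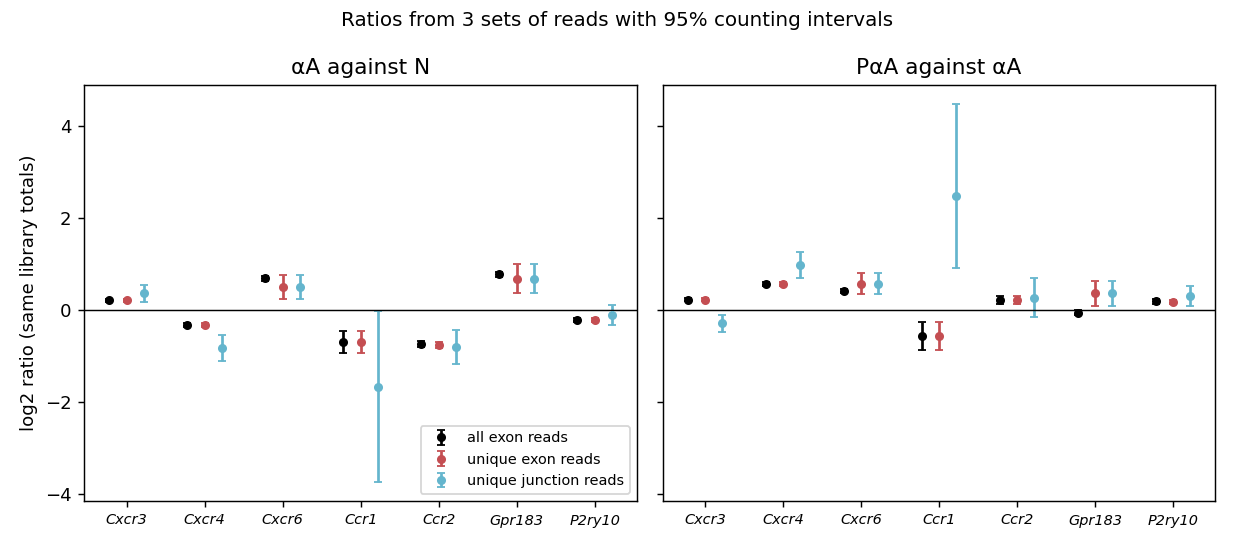
log2 ratios of the 7 receptor genes for αA against N (left) and PαA against αA (right), from all exon reads, unique exon reads and unique junction reads. Bars are 95% Clopper-Pearson intervals of counting error. For *Cxcr6* and *Gpr183* unique exon reads and unique junction reads coincide, and *Ccr1* has the widest junction interval.

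*Cxcr6*, *Ccr1* and *Ccr2* lie in a stretch of 435 kb on chromosome 9 that runs from *Ccr9* to *Ccr2* and holds 7 chemokine receptor genes, with *Ccr1l1* at 0 reads in all libraries. Of the 6 with reads, 1 was higher in αA than in N, *Cxcr6*, and 5 were lower. *Ccr9*, the gut-homing receptor, had an RPKM of 22.3 in N, 7.95 in αA and 3.89 in PαA. *Ccr3*, the eotaxin receptor, was at 6.15, 4.66 and 1.93. Between PαA and αA, 3 were higher, *Cxcr6*, *Ccr2* and *Xcr1*, and 3 lower. *Xcr1*, known from dendritic cells, had only 161, 97 and 92 reads, and its log2 ratio of 0.02 had an interval that held 0 (-0.41 to 0.45). Neighbouring receptor genes thus differed in direction. *Ccr2* and *Ccr3*, which are adjacent, had log2 ratios of PαA to αA of 0.22 and -1.27.

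**Figure D4:**
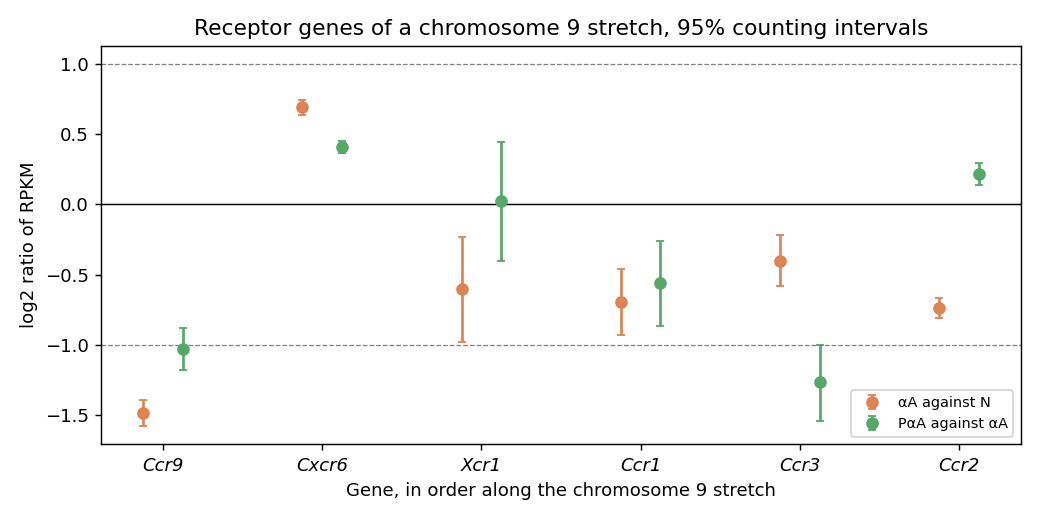
log2 ratios of RPKM for the 6 receptor genes with reads, in their order along a stretch of chromosome 9, for αA against N and PαA against αA. Bars are 95% Clopper-Pearson intervals of counting error and dashed lines mark 2-fold. *Cxcr6* is above 0 in both comparisons, while *Ccr9* is below the lower dashed line in both.

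Of 12 ligands of these receptors, 4 had an RPKM above 5 in a library. None of the 4 passed 2-fold between αA and N, and 2 were higher in PαA than in αA by this measure. *Ccl5*, a ligand of CCR1 made by activated T cells, was at 816, 432 and 1134, and *Ccl3*, another ligand of CCR1, at 25.8, 24.1 and 68.6. *Cxcl10*, a ligand of CXCR3, was at 21.2, 19.7 and 14.1, with 211, 139 and 115 unique reads of 958, 817 and 547. *Mif*, counted among the 12 ligands and the remaining one above an RPKM of 5, was at 281, 240 and 282. *Cxcl12* (66, 7 and 64 reads), *Cxcl16* (166, 86 and 127 reads) and *Ccl2* (15, 0 and 14 reads) were low, and *Cxcl11* had 13 reads in PαA and 0 in the other libraries. The 4 enzymes of the GPR183 ligand, which make or degrade it, were all below an RPKM of 1. *Hsd3b7*, which removes the ligand, had 58, 32 and 15 reads, of which 8, 2 and 5 were unique. *Cyp7b1* had 0 in all libraries.

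Of 10 lipid receptors related to P2RY10, 9 were above an RPKM of 5 in a library. None of the 9 passed 2-fold between αA and N, while 2 were higher and 1 lower in PαA than in αA. *S1pr1*, which guides exit from lymphoid organs, was the highest of them in αA and PαA, with an RPKM of 55.5 in N, 88.0 in αA and 189 in PαA. *Ltb4r1*, the leukotriene B4 receptor, was at 15.2, 17.4 and 62.4. *Gpr34*, a lysophosphatidylserine receptor like P2RY10, was at 5.36, 6.446 and 2.24. Of its 333, 367 and 119 exon reads only 24, 23 and 4 were unique. The paralogue of *P2ry10* beside it on chromosome X, listed as *A630033H20Rik*, was at 2.93, 2.38 and 2.29.

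Of 27 genes of Gi signalling and receptor desensitisation, 24 were above an RPKM of 5 in a library. None of the 24 passed 2-fold between αA and N, while 1 was higher and 2 lower in PαA than in αA. *Rgs2* was at 7.96, 4.33 and 9.06, *Rgs16* at 52.5, 29.5 and 11.97, and *Plcb2*, a phospholipase of this pathway, at 5.05, 3.99 and 1.89. The *Rgs* genes encode proteins that shorten G protein signals, and *Rgs1* was at 24.1, 13.0 and 8.12. *Rac2*, a GTPase of the moving cytoskeleton, was the highest of the list at 535, 484 and 438. The median log2 ratio of the 24 genes was -0.18 for αA against N and -0.07 for PαA against αA, beside -0.14 and -0.06 over all expressed genes.

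Since *Cxcr3* is a marker of type 1 helper cells, 8 genes of that programme were read beside it, and 7 were above an RPKM of 5. *Tbx21*, which encodes T-bet, was at 15.9, 25.4 and 21.3 and so was highest in αA, while *Cxcr3* was highest in PαA. Between αA and N, 1 of 7 was higher by more than 2-fold, *Txk*, a T cell kinase gene (2.58, 6.447 and 11.2). Between PαA and αA, 2 of 7 were higher, *Il18r1* (23.9, 14.4 and 38.0) and *Il18rap* (7.99, 5.11 and 11.8), which encode the chains of the IL-18 receptor. *Stat4*, which transmits IL-12 signals, was at 52.6, 34.8 and 36.3, highest in N, where *Cxcr3* was lowest. *Ifng* was at 20.5, 18.1 and 24.6.

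The genes most like each receptor across the 3 libraries were sought by the distance between their log2 ratios for αA against N and PαA against αA, over 6262 genes with at least 100 reads in each library and mostly unique reads. Closest to *Cxcr6* were *Plbd1* (distance 0.015), *Lpcat4* (0.12) and *Ctsw* (0.16), a protease gene of cytotoxic lymphocytes, and 1 gene lay within 0.1. Closest to *Gpr183* were *Ppic*, *Bod1* and *St6gal1*, with 8 genes within 0.1. *Ccr2* was closest to *Ttc7*, *H2afj* and *Inppl1*, with 19 genes within 0.1, and *Cxcr4* to *Dyrk2*, *Adpgk* and *Mpc2*, with 35. *Cxcr3* was closest to *Rnf13*, *Rpsa* and *Tra2a* and had 92 genes within 0.1, and *P2ry10* was closest to *Ufd1*, *Ppp1r35* and *Fkbp2* and had 232. A likeness over 3 libraries is a description and has no error. *Cxcr6* and *Gpr183* had few genes near them, with αA to N ratios above those of 97.6% and 98.0% of expressed genes. Both were placed by all exon reads, few of which were unique. By unique reads their log2 ratios for αA against N and PαA against αA were 0.50 and 0.57 (*Cxcr6*) and 0.69 and 0.37 (*Gpr183*). Genes near these values were not sought.

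**Figure D5:**
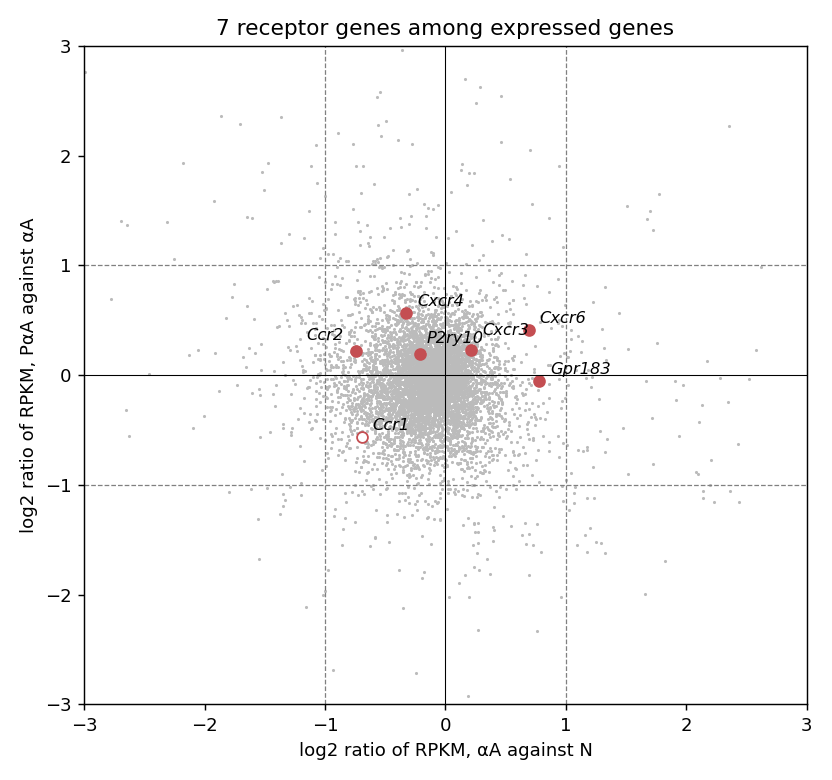
log2 ratio of RPKM for αA against N (x axis) and PαA against αA (y axis). Grey points are 6968 genes with an RPKM above 5 in a library, and the other 49 lie outside the axes or have 0 reads in a library. Red points are the receptors, the open one *Ccr1*, and dashed lines mark 2-fold. All 7 receptors lie inside the dashed lines, with *Cxcr6* and *Gpr183* on the right.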

How the data were processed

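The authors made poly(A) libraries from RNA of 3 TFR cell samples, 1 per genotype, trimmed single reads and used CLC Genomics Workbench to map them to GRCm38 and count them per gene. The annotation release is not given in the sources used here. They deposited whole-number counts of exon, unique, junction and intron reads, which are not normalized. The deposited RPKM and TPM carry a decimal comma, which was replaced by a point. The library totals behind RPKM were recovered from the deposited columns. The 3715 genes with an exon length of 0 were left out.

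Levels carry 95% Poisson intervals and ratios of RPKM 95% Clopper-Pearson intervals. Reads have no molecular identifiers, so both cover counting error only. No pseudocount was added. The study applies its level of 5 to an expression value, and reading it as RPKM is a choice. Without replicates, nothing was tested. Alternatives were TPM, TMM factors from edgeR 4.0.16 (R 4.3.3) on the counts, median-of-ratios size factors, unique reads, other levels, a 1.5-fold limit, pseudocounts of 1 and 0.1 and centring. Filter and intervals were tested on simulated counts.

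The 7 genes and the gene lists were chosen with earlier results of these data known. Named were all 7 receptors, in each list of ligands, enzymes, lipid receptors, Gi signalling and type 1 helper genes those past 2-fold between αA and N or PαA and αA and the highest gene, the 3 genes most like each receptor above the level, and genes overlapping a receptor. Other genes, markers included, were chosen after their values were seen. Values of some single genes were left out of the lists and are not reported here. Python 3.11.15, pandas 2.3.3, numpy 2.4.6, scipy 1.17.1 and matplotlib 3.10.9 were used.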

Additional observations from a re-analysis of the deposited data

How the results depend on the processing

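No paired analysis was possible because each genotype has 1 library. Of 21 receptor ratios, 19 kept their sign with all 11 other settings. Among these 11, the other levels, the 1.5-fold limit and the pseudocounts cannot turn a sign. Over the 11 settings, PαA against αA for *Gpr183* ran from -0.22 (TPM) to 0.37 (unique reads). PαA against N for *P2ry10* ran from -0.22 (TPM) to 0.22 (median-of-ratios size factors). Unique junction reads are not among the 11 and gave the other sign in 5 of 21 ratios. The count of receptors past 2-fold between PαA and N was 1, but 0 with TPM, and 2 with unique reads scaled to their own sum, with an RPKM above 1 (both times *Cxcr6* and *Ccr1*) and at 1.5-fold (*Cxcr6* and *Gpr183*). It was also 2 with unique junction reads, a set chosen after seeing the data (*Cxcr6* and *Gpr183*). Between αA and N it was 0, and 3 at 1.5-fold. Between PαA and αA it was 0 with each of these settings. For αA against N, PαA against αA and PαA against N, the counts of expressed genes were 298, 325 and 725, against 978, 1016 and 1715 with an RPKM above 1, 146, 171 and 392 with an RPKM above 10, and 988, 1033 and 1966 at 1.5-fold. With a pseudocount of 1 the first 2 were 194 and 215. These limits change the genes that can pass by construction. The share of higher genes among those past 2-fold was 33.9, 47.1 and 24.8%, and 54.5, 56.6 and 50.7% with TMM factors. With TPM it was 31.3% for PαA against αA and 13.4% for PαA against N. With 1 library per genotype, the spread between mice is unknown, and deeper sequencing of these libraries would not give it.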
